A study of Mus musculus with 18 samples.

Results

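The genes described here build ribosomes. They are 48 mouse genes for RNA polymerase I, the small nucleolar ribonucleoproteins (snoRNPs), the assembly factors of the small and large ribosomal subunits and other nucleolar proteins, chosen by their known roles. They were listed with earlier results of these data known. Of the 48, 46 were measured, among 18193 genes on the arrays. Mrto4 and Npm3 were not analysed here, Mrto4 because its probe set names several genes. Each gene was read from the probe set with the highest mean among those that name no other gene. Values were Affymetrix intensities, and a log2 level below is log2 of the intensity plus 16 after quantile normalization, which gives all arrays the same distribution.

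Ribosomes are made in the nucleolus, where RNA polymerase I transcribes ribosomal DNA into a long precursor RNA. Small nucleolar RNAs held in box C/D and box H/ACA particles guide the methylation and pseudouridylation of this precursor, and large assemblies of helicases, nucleases, methyltransferases and scaffold proteins cut and fold it while ribosomal proteins join. Resting T cells keep this pathway low, and T cells that receive an activating signal enlarge their nucleoli and make more ribosomes before they divide.

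The study hybridised splenic CD4 T cells, isolated on magnetic beads, of mice with a C57BL/6 background at 9 to 15 weeks of age to 18 arrays in 6 groups of 3. Cells from Gli2A Tg, Gli2R Tg and WT mice had been stimulated for 6 h with anti-CD3 and anti-CD28. These antibodies bind the T cell receptor complex and a costimulatory receptor. Resting cells of the same 3 genotypes had no stimulation. Gli2 is a transcription factor of the Hedgehog pathway. The labels name neither the promoter that drives each transgene nor the form of Gli2 it encodes, and they name no group cultured for 6 h without antibodies, so stimulation and time in culture cannot be told apart. The sources used here do not say whether the 3 replicates of a group are separate mice, so p-values measure only the spread between these samples.

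Ptch1, a Hedgehog target gene, had log2 levels of 12.05 to 12.48 in stimulated Gli2A Tg cells and 13.28 to 13.60 in resting Gli2A Tg cells, against 9.95 to 10.60 in the 12 arrays of the other genotypes. The T cell genes Cd3e and Cd4 were above the median gene level of 7.06 in all 18 arrays, but both fell with stimulation. The log2 differences of Cd3e were -2.95 in Gli2A Tg, -2.69 in Gli2R Tg and -2.73 in WT cells. Those of Cd4 were -1.08, -1.32 and -1.30 in the same order. Markers of other cells were also present and moved with stimulation and, in resting cells, with genotype. The summed intensity of 10 myeloid genes was 843 to 3873 in stimulated and 35528 to 88446 in resting cells, that of 9 T cell genes 52970 to 60256 in stimulated and 76602 to 115516 in resting cells, and that of 7 B cell genes 294 to 1300 in stimulated and 1312 to 4022 in resting cells. The sum of 7 erythroid genes was 7768 to 14383 in stimulated and 4294 to 62404 in resting cells, and that of 7 CD8 T and NK cell genes 2064 to 3181 in stimulated and 6174 to 9841 in resting cells. Single markers went against these sums. Cd8a rose by 2.03 in Gli2A Tg, 2.54 in Gli2R Tg and 2.05 in WT cells on the log2 scale (adjusted p = 8.02e-06, 8.44e-07 and 7.77e-06). The T cell gene Zap70 differed by 1.14 in Gli2A Tg, 0.50 in Gli2R Tg and 0.85 in WT cells. Its adjusted p was 0.000277, 0.0625 and 0.00314. Cd28, also a T cell gene, differed by 0.96, 0.25 and 0.23 in the same order (adjusted p = 0.00121, 0.36 and 0.406). The B cell gene Pax5 differed by 1.67, 1.60 and 0.86 (adjusted p = 0.00319, 0.0045 and 0.104). Its group means were 4.85 to 6.78, below the median gene level. The erythroid sum moved in opposite directions by genotype. For Gli2R Tg it was higher after stimulation, at 10710 to 12294 against 4294 to 10146. It was lower after stimulation for Gli2A Tg (7768 to 11856 against 24279 to 62404) and WT (12221 to 14383 against 20444 to 29924). Tfrc, which activated T cells also make, rose with the Gli2R Tg sum, by 2.38 (adjusted p = 1.84e-05). In stimulated cells of every genotype Tfrc was by far the brightest of the 7 genes and made up most of the sum. Its mean log2 level there was 12.72 in Gli2A Tg, 13.28 in Gli2R Tg and 13.29 in WT cells, against at most 9.52 for the others. The erythroid genes Alas2, Klf1 and Hemgn fell in each genotype, for Gli2R Tg against the sum. No marker was listed at 0, but the lowest deposited value of a marker was 2.43, and a value above 0 does not show that a gene was detected. Hba-a1 had group means of 4.44 to 5.18, below the 25th percentile of gene levels, 5.37. The 3′ to 5′ ratio of the Gapdh control probe sets, a measure of RNA integrity and labelling, was 1.71 to 2.79 in stimulated and 0.71 to 1.13 in resting cells. Resting Gli2A Tg cells had a myeloid sum of 82392 to 88446, against 35528 to 45044 in resting Gli2R Tg and 48423 to 71225 in resting WT cells, and the erythroid sum was 24279 to 62404 in resting Gli2A Tg, 4294 to 10146 in resting Gli2R Tg and 20444 to 29924 in resting WT cells. The part of these shifts in the results below was not tested, and in bulk RNA fewer cells of a type and less RNA per cell cannot be told apart.

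A pair of Gli2A Tg arrays stood apart. In resting replicate 3, 37 of the 46 genes lay above their group mean, against 10 and 18 in the other replicates, and the erythroid sum was 62404, against 24279 and 26941 in the other replicates. In stimulated replicate 2 the 3′ to 5′ ratio of the Actb probe sets was 2.996, against at most 1.82 on any other array, and 14 of the 46 lay above their group mean, against 33 and 30 in the other replicates. Log2 differences printed for single genes of the 46 that moved by over 1.5 times or changed call without 1 of these arrays are also given without it.

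Nearly the whole set was higher in stimulated cells. Of the 46 genes, 43 rose in Gli2A Tg, 44 in Gli2R Tg and 43 in WT cells at an adjusted p under 0.05 (limma, Benjamini-Hochberg over all 18193 genes), and 1 fell in each genotype. Over all genes, 20.2% rose and 22.8% fell in Gli2A Tg, 19.8% rose and 22.5% fell in Gli2R Tg, and 19.7% rose and 22% fell in WT cells. The median of the 46 log2 differences, stimulated minus resting, was 1.64 in Gli2A Tg (3.12-fold), 1.91 in Gli2R Tg (3.76-fold) and 1.88 in WT cells (3.67-fold), and the median over all genes was 0.00, 0.01 and 0.00. More than 2-fold higher were 35, 39 and 38 of the 46 in Gli2A Tg, Gli2R Tg and WT cells, or 76.1%, 84.8% and 82.6%, beside 11.3%, 11.1% and 10.9% of all genes.

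**Figure D1:**
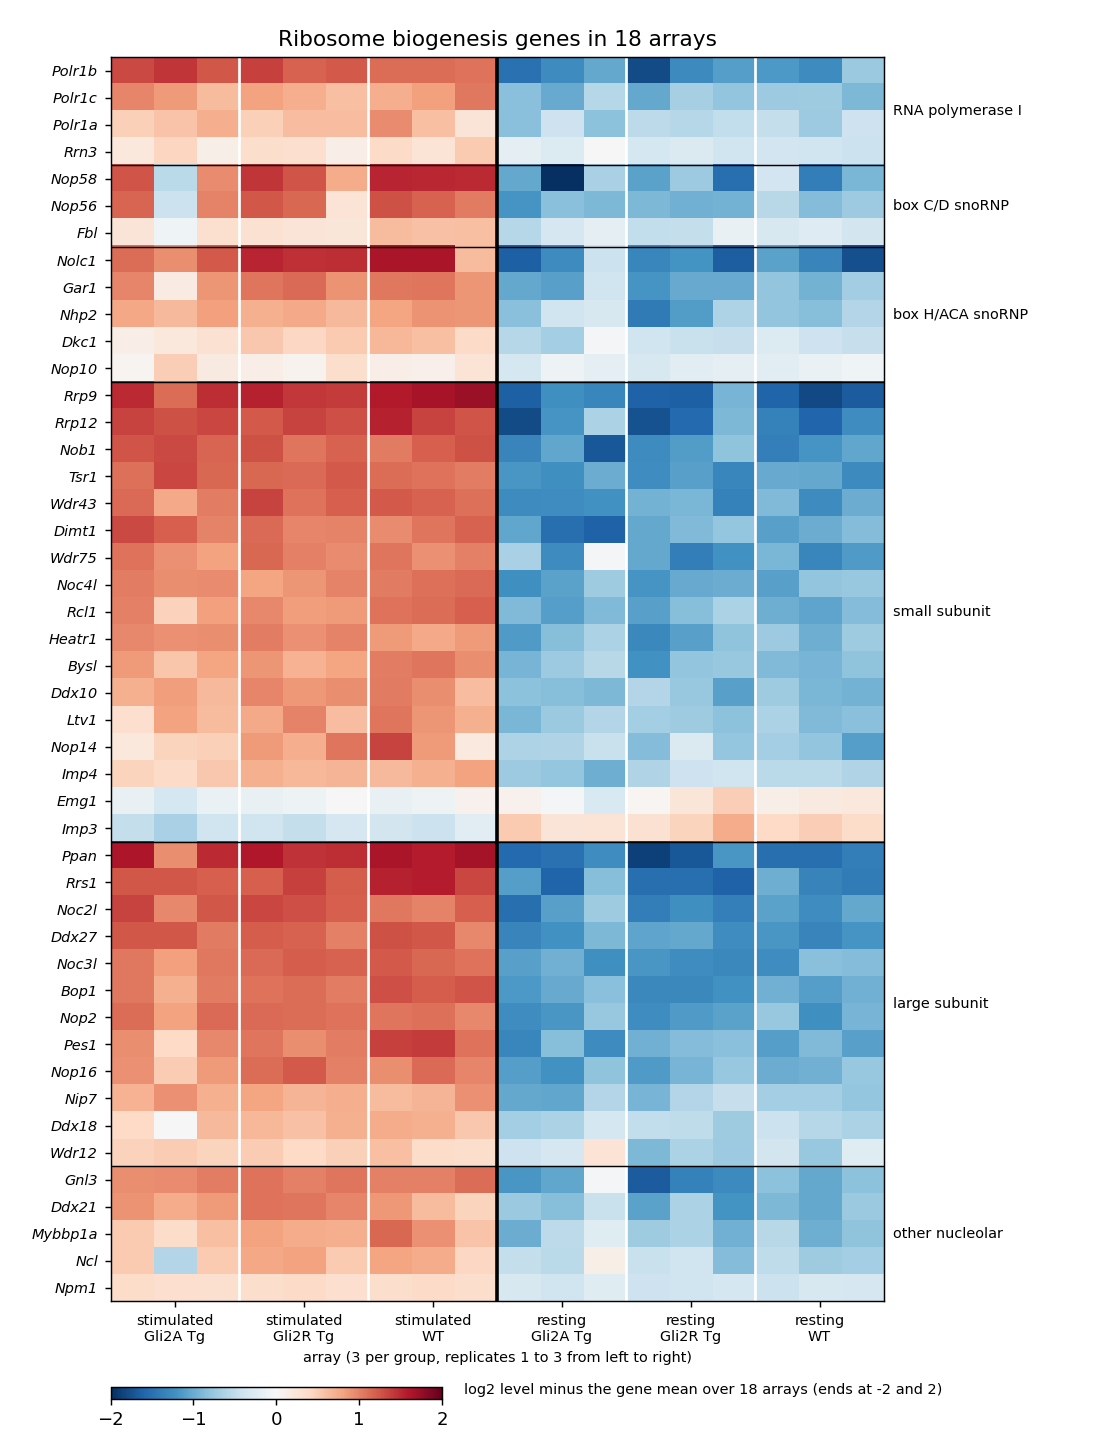
Log2 level of 46 ribosome biogenesis genes (down the page, grouped by role) in 18 arrays (across, 3 per group), each gene shown as the difference from its own mean over the arrays, with the colour scale ending at -2 and 2. The 9 stimulated arrays on the left lie above the gene mean and the 9 resting arrays on the right below it for nearly all genes; Imp3 runs the other way, and stimulated Gli2A Tg replicate 2 is low for Nop58 and Ncl.

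The groups were well separated gene by gene. The 3 stimulated arrays lay above the 3 resting arrays without overlap for 43 of the 46 genes in Gli2A Tg, 44 in Gli2R Tg and 44 in WT cells, where 24.1%, 24.8% and 24.7% of all genes did so. All of the 46 had a mean level above the median gene, between 9.44 and 14.98, and their median standard deviation within a group was 0.17, against 0.34 for all genes. When arrays were median-centred instead, the median over all genes moved to 0.11 in Gli2A Tg, 0.05 in Gli2R Tg and 0.13 in WT cells, and the median of the 46 was then 1.93, 1.97 and 2.13.

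RNA polymerase I makes the precursor RNA, and all 4 of its genes rose in every genotype, with median log2 differences of 1.45 in Gli2A Tg, 1.32 in Gli2R Tg and 1.40 in WT cells. Polr1b, which encodes the second largest catalytic subunit, had log2 levels of 11.95, 12.05 and 11.87 in stimulated Gli2A Tg cells, 11.99, 11.81 and 11.86 in stimulated Gli2R Tg cells and 11.74, 11.74 and 11.72 in stimulated WT cells. In resting cells it had 9.13, 9.37 and 9.61 in resting Gli2A Tg cells, 8.84, 9.35 and 9.53 in resting Gli2R Tg cells and 9.49, 9.38 and 9.90 in resting WT cells. The lowest stimulated array lay 1.82 units above the highest resting one, and the level was higher 6.00-fold in Gli2A Tg, 6.25-fold in Gli2R Tg and 4.43-fold in WT cells (adjusted p = 3.22e-08, 2.6e-08 and 2.13e-07). The SE of a gene is the same in the 3 genotypes, since all arrays share 1 fit. Polr1c, a subunit shared with RNA polymerase III, differed by 1.62 in Gli2A Tg, 1.53 in Gli2R Tg and 1.65 in WT cells (SE 0.15) on the log2 scale, and Polr1a, the largest subunit, by 1.28 in Gli2A Tg, 1.10 in Gli2R Tg and 1.14 in WT cells (SE 0.17).

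Rrn3, the factor that brings RNA polymerase I to the ribosomal DNA promoter, moved least of the 4. It had 10.53, 10.76 and 10.45 in stimulated Gli2A Tg cells, 10.68, 10.66 and 10.46 in stimulated Gli2R Tg cells and 10.71, 10.60 and 10.85 in stimulated WT cells, against 10.13, 10.05 and 10.33 in resting Gli2A Tg cells, 9.99, 10.04 and 9.92 in resting Gli2R Tg cells and 9.94, 9.93 and 9.91 in resting WT cells. The groups did not overlap within a genotype. The log2 difference was 0.41 in Gli2A Tg, 0.62 in Gli2R Tg and 0.79 in WT cells (SE 0.12), with adjusted p of 0.0143, 0.00082 and 9.4e-05. In Gli2A Tg cells the call was lost without stimulated replicate 2 (log2 difference 0.32, adjusted p = 0.0669) and without resting replicate 2 (0.35, adjusted p = 0.0582).

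The 3 box C/D proteins all rose. Nop58 and Nop56 form the paired core of the particle, and Fbl is the methyltransferase. Nop58 had log2 levels of 12.78, 10.99 and 12.47 in stimulated Gli2A Tg cells, 12.96, 12.78 and 12.27 in stimulated Gli2R Tg cells and 13.05, 13.03 and 13.02 in stimulated WT cells, against 10.50, 9.52 and 10.87 in resting Gli2A Tg cells, 10.45, 10.80 and 10.02 in resting Gli2R Tg cells and 11.15, 10.14 and 10.62 in resting WT cells. Its Gli2A Tg groups nearly met: stimulated replicate 2 lay far below the other stimulated arrays and resting replicate 3 was at 10.87. The log2 difference was 1.78 in Gli2A Tg, 2.24 in Gli2R Tg and 2.40 in WT cells (SE 0.43, adjusted p = 0.00321, 0.000534 and 0.000305). Without stimulated Gli2A Tg replicate 2 it was 2.33 in Gli2A Tg cells. For Nop56 the log2 difference was 1.55 in Gli2A Tg, 1.83 in Gli2R Tg and 1.88 in WT cells (SE 0.33).

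Fbl was already bright in resting cells and changed less. It had 14.18, 13.84 and 14.25 in stimulated Gli2A Tg cells, 14.23, 14.18 and 14.16 in stimulated Gli2R Tg cells and 14.55, 14.50 and 14.53 in stimulated WT cells, against 13.35, 13.59 and 13.74 in resting Gli2A Tg cells, 13.42, 13.44 and 13.77 in resting Gli2R Tg cells and 13.60, 13.66 and 13.56 in resting WT cells. These values did not overlap within a genotype, and the log2 difference was 0.53 in Gli2A Tg, 0.65 in Gli2R Tg and 0.92 in WT cells (SE 0.14, adjusted p = 0.00652, 0.00151 and 7.94e-05).

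Among the 5 box H/ACA genes, each read from its brightest probe set, 5 rose in Gli2A Tg, 5 in Gli2R Tg and 4 in WT cells. Nolc1, a nucleolar phosphoprotein that escorts snoRNPs, differed most. Its log2 levels were 12.20, 12.01 and 12.31 in stimulated Gli2A Tg cells, 12.61, 12.55 and 12.56 in stimulated Gli2R Tg cells and 12.73, 12.72 and 11.72 in stimulated WT cells, against 9.46, 9.84 and 10.66 in resting Gli2A Tg cells, 9.78, 9.89 and 9.45 in resting Gli2R Tg cells and 10.02, 9.78 and 9.33 in resting WT cells. Stimulated WT replicate 3 was below its partners and still above every resting array, and the increase was 4.55-fold in Gli2A Tg, 7.29-fold in Gli2R Tg and 6.40-fold in WT cells (adjusted p = 2.63e-05, 1.78e-06 and 3.67e-06). Gar1 differed by 1.52 in Gli2A Tg, 2.11 in Gli2R Tg and 1.81 in WT cells (SE 0.21), Nhp2 by 1.27 in Gli2A Tg, 1.76 in Gli2R Tg and 1.60 in WT cells (SE 0.18), and Dkc1, the pseudouridine synthase itself, by 0.64 in Gli2A Tg, 0.92 in Gli2R Tg and 0.93 in WT cells (SE 0.15). A dimmer Dkc1 probe set gave 1.84 in Gli2A Tg, 1.94 in Gli2R Tg and 2.13 in WT cells. The dimmest Dkc1 probe set gave -0.28 in Gli2A Tg, 0.96 in Gli2R Tg and 0.42 in WT cells, and was called only in Gli2R Tg cells. The size of the Dkc1 change thus depends on the probe set.

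Nop10, the smallest core protein of the box H/ACA particle, gave opposite answers from its probe sets. The brightest had log2 levels of 14.41, 14.85 and 14.54 in stimulated Gli2A Tg cells, 14.48, 14.42 and 14.71 in stimulated Gli2R Tg cells and 14.49, 14.45 and 14.63 in stimulated WT cells, against 14.002, 14.25 and 14.17 in resting Gli2A Tg cells, 14.03, 14.15 and 14.17 in resting Gli2R Tg cells and 14.14, 14.22 and 14.26 in resting WT cells. The stimulated arrays were higher without overlap, with log2 differences of 0.46 in Gli2A Tg, 0.42 in Gli2R Tg and 0.31 in WT cells (SE 0.14, adjusted p = 0.012, 0.0197 and 0.0793). In WT cells the value was 0.61 with median centring (adjusted p = 0.00213) and 0.41 with the deposited scaling (adjusted p = 0.0225). All 34945 probe sets that name 1 gene were also fitted together, and p-values of dimmer probe sets were adjusted over that fit, in which the brightest Nop10 probe set had adjusted p of 0.0171 in Gli2A Tg, 0.0272 in Gli2R Tg and 0.0982 in WT cells. The dimmer Nop10 probe set fell, by 0.62 in Gli2A Tg, by 0.70 in Gli2R Tg and by 0.92 in WT cells (adjusted p = 0.00255, 0.00103 and 0.000105). It had 12.68, 13.01 and 12.86 in stimulated Gli2A Tg cells, 12.79, 12.81 and 12.99 in stimulated Gli2R Tg cells and 12.67, 12.72 and 12.71 in stimulated WT cells, against 13.45, 13.67 and 13.30 in resting Gli2A Tg cells, 13.43, 13.54 and 13.72 in resting Gli2R Tg cells and 13.50, 13.58 and 13.77 in resting WT cells. The call of the brightest probe set was lost in Gli2A Tg cells without resting replicate 1 (adjusted p = 0.0518) or stimulated replicate 2 (log2 difference 0.33, adjusted p = 0.0643). In Gli2R Tg cells it was lost without resting replicate 1 (adjusted p = 0.0683) or stimulated replicate 3 (adjusted p = 0.094). No direction can be given for the gene as a whole.

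The 17 small-subunit factors split into 15 that rose in each genotype, 1 that fell in each and 1 that was called in none. Their median log2 difference was 1.72 in Gli2A Tg, 1.93 in Gli2R Tg and 1.98 in WT cells. Rrp9, a protein of the U3 snoRNP that directs the first cuts of the precursor, had log2 levels of 12.58, 12.20 and 12.57 in stimulated Gli2A Tg cells, 12.63, 12.50 and 12.48 in stimulated Gli2R Tg cells and 12.66, 12.74 and 12.80 in stimulated WT cells. Resting cells had 9.45, 9.86 and 9.79 in resting Gli2A Tg cells, 9.47, 9.45 and 10.16 in resting Gli2R Tg cells and 9.48, 9.27 and 9.43 in resting WT cells. The lowest stimulated array was 2.04 units above the highest resting one, and the increase was 6.72-fold in Gli2A Tg, 7.18-fold in Gli2R Tg and 10.2-fold in WT cells (adjusted p = 1.86e-08, 1.49e-08 and 4.35e-09).

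Other genes that work early on the precursor rose too. Wdr43, Wdr75 and Heatr1 belong to the subcomplex that binds the nascent precursor first, and their log2 differences were 2.21 in Gli2A Tg, 2.28 in Gli2R Tg and 2.22 in WT cells for Wdr43 (SE 0.15), 1.58 in Gli2A Tg, 2.24 in Gli2R Tg and 2.11 in WT cells for Wdr75 (SE 0.23) and 1.81 in Gli2A Tg, 2.03 in Gli2R Tg and 1.62 in WT cells for Heatr1 (SE 0.15). Noc4l and its partner Nop14 differed by 1.97 in Gli2A Tg, 1.95 in Gli2R Tg and 1.98 in WT cells (SE 0.14) and by 0.93 in Gli2A Tg, 1.53 in Gli2R Tg and 1.66 in WT cells (SE 0.24). Rcl1, Bysl and the helicase Ddx10 lay between 1.47 and 2.10 in all genotypes.

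Genes that act late, on the exported or nearly finished small subunit, rose as well. Nob1, the nuclease that makes the final cut of the small-subunit RNA, differed by 2.60 in Gli2A Tg, 2.24 in Gli2R Tg and 2.36 in WT cells (SE 0.17). Dimt1, which dimethylates that RNA, differed by 2.55 in Gli2A Tg, 1.93 in Gli2R Tg and 2.05 in WT cells (SE 0.15), and Tsr1, an assembly factor that resembles translation GTPases, by 2.32 in Gli2A Tg, 2.39 in Gli2R Tg and 2.18 in WT cells (SE 0.12). Rrp12 and Ltv1 are assembly factors known in yeast for the export of the small subunit. Rrp12 differed by 2.52 in Gli2A Tg, 2.68 in Gli2R Tg and 2.78 in WT cells (SE 0.25) and Ltv1 by 1.33 in Gli2A Tg, 1.53 in Gli2R Tg and 1.67 in WT cells (SE 0.16).

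**Figure D2:**
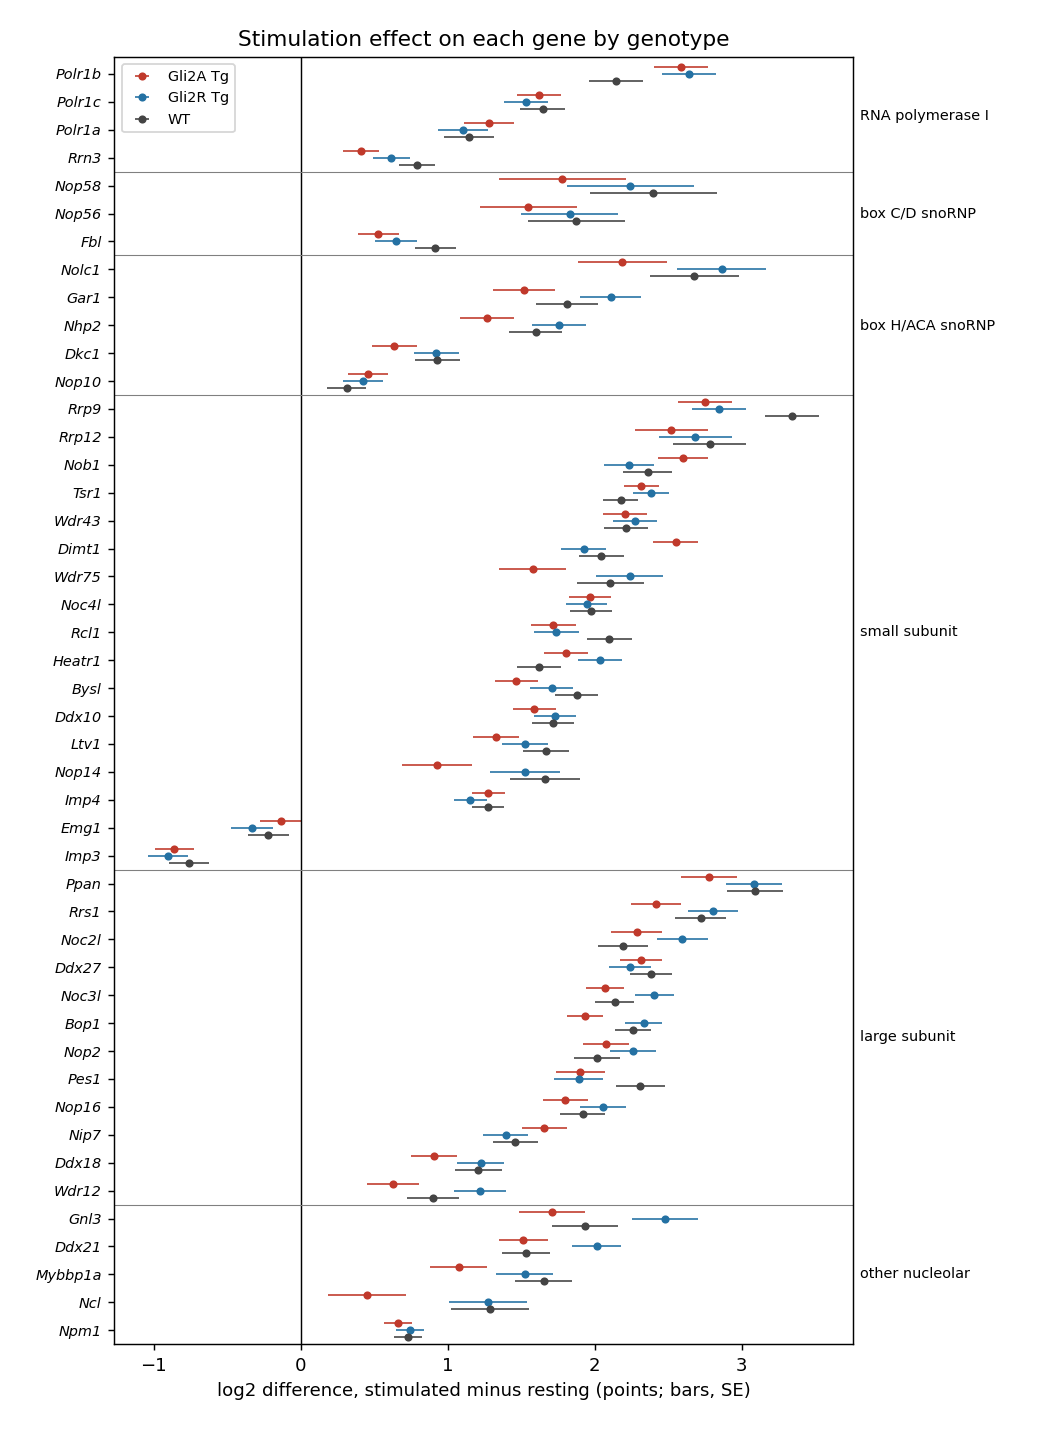
Log2 difference, stimulated minus resting, of each of 46 genes in Gli2A Tg (red), Gli2R Tg (blue) and WT cells (grey), with bars of 1 SE and the genes grouped by role. Most points lie between 0.4 and 3.4 with the 3 genotypes close together; Imp3 lies at -0.76 to -0.90, Emg1 near 0, and the Gli2A Tg point of Ncl is left of the others.

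Imp3 was the gene that fell. It encodes a small protein of the U3 snoRNP that works beside Imp4. Its log2 levels were 12.16, 11.99 and 12.24 in stimulated Gli2A Tg cells, 12.25, 12.17 and 12.30 in stimulated Gli2R Tg cells and 12.27, 12.21 and 12.41 in stimulated WT cells, against 13.16, 12.89 and 12.91 in resting Gli2A Tg cells, 12.95, 13.08 and 13.39 in resting Gli2R Tg cells and 13.04, 13.14 and 13.003 in resting WT cells. No stimulated array reached a resting one, and the log2 difference was -0.86 in Gli2A Tg, -0.90 in Gli2R Tg and -0.76 in WT cells (SE 0.14, adjusted p = 9.11e-05, 5.77e-05 and 0.000285). Its partner Imp4 rose, with log2 differences of 1.28 in Gli2A Tg, 1.15 in Gli2R Tg and 1.28 in WT cells (SE 0.11). Imp3 has 1 probe set on the array, and with median centring its WT value was -0.37 (adjusted p = 0.0553).

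Emg1, a methyltransferase that modifies small-subunit RNA, was not called in any genotype. It had 13.61, 13.40 and 13.62 in stimulated Gli2A Tg cells, 13.61, 13.65 and 13.77 in stimulated Gli2R Tg cells and 13.61, 13.65 and 13.83 in stimulated WT cells, against 13.85, 13.74 and 13.46 in resting Gli2A Tg cells, 13.80, 13.99 and 14.24 in resting Gli2R Tg cells and 13.86, 13.93 and 13.96 in resting WT cells. The Gli2A Tg groups overlapped, while the Gli2R Tg and WT groups did not. The log2 differences were -0.14 in Gli2A Tg, -0.33 in Gli2R Tg and -0.22 in WT cells (SE 0.14, adjusted p = 0.488, 0.0731 and 0.242), and their sign in Gli2A Tg and WT cells changed with the scaling of the arrays. Without resting Gli2R Tg replicate 1 the Gli2R Tg difference was -0.44 (adjusted p = 0.0324). In Gli2A Tg cells it was -0.25 without resting replicate 3 (adjusted p = 0.199) and -0.06 without stimulated replicate 2 (adjusted p = 0.796).

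All 12 large-subunit factors rose in each genotype, and their median log2 difference was 2.003 in Gli2A Tg, 2.25 in Gli2R Tg and 2.17 in WT cells. Ppan, whose yeast counterpart Ssf1 is needed to process the large-subunit RNA, had the highest mean over genotypes of all 46. It had 12.01, 11.33 and 11.88 in stimulated Gli2A Tg cells, 11.995, 11.84 and 11.87 in stimulated Gli2R Tg cells and 12.02, 11.96 and 12.06 in stimulated WT cells, against 8.83, 8.91 and 9.14 in resting Gli2A Tg cells, 8.53, 8.69 and 9.24 in resting Gli2R Tg cells and 8.89, 8.88 and 9.003 in resting WT cells. Even the lowest stimulated array, Gli2A Tg replicate 2, was 2.09 units above the highest resting array, and the increase was 6.86-fold in Gli2A Tg, 8.47-fold in Gli2R Tg and 8.53-fold in WT cells (adjusted p = 2.47e-08, 9.92e-09 and 1.02e-08). Rrs1, which helps to bring the small RNA of the large subunit into the particle, differed by 2.42 in Gli2A Tg, 2.80 in Gli2R Tg and 2.72 in WT cells (SE 0.17).

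The other large-subunit factors followed. Noc2l and Noc3l, whose yeast counterparts bind each other, differed by 2.29 in Gli2A Tg, 2.60 in Gli2R Tg and 2.19 in WT cells (SE 0.17) and by 2.07 in Gli2A Tg, 2.41 in Gli2R Tg and 2.14 in WT cells (SE 0.13). The helicase Ddx27 differed by 2.32 in Gli2A Tg, 2.24 in Gli2R Tg and 2.38 in WT cells (SE 0.14). Another helicase, Ddx18, differed by 0.91 in Gli2A Tg, 1.22 in Gli2R Tg and 1.21 in WT cells (SE 0.16). Dimmer Ddx18 probe sets gave 1.57 and 1.12 in Gli2A Tg, 1.97 and 1.31 in Gli2R Tg and 2.31 and 1.98 in WT cells. The dimmer Ddx27 probe set gave 0.40 in Gli2A Tg, 0.85 in Gli2R Tg and 1.02 in WT cells. The contrast between these helicases thus depends on the probe set. Nop2, which methylates a cytosine of large-subunit RNA, differed by 2.08 in Gli2A Tg, 2.26 in Gli2R Tg and 2.02 in WT cells (SE 0.16). Nop16 and Nip7 lay between 1.40 and 2.06 in all genotypes.

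Pes1, Bop1 and Wdr12 form 1 complex (PeBoW) and their probe sets did not move by the same amount. Pes1 differed by 1.90 in Gli2A Tg, 1.89 in Gli2R Tg and 2.31 in WT cells (SE 0.17) and Bop1 by 1.94 in Gli2A Tg, 2.33 in Gli2R Tg and 2.26 in WT cells (SE 0.12). Wdr12 had log2 levels of 11.76, 11.80 and 11.74 in stimulated Gli2A Tg cells, 11.80, 11.70 and 11.78 in stimulated Gli2R Tg cells and 11.90, 11.67 and 11.65 in stimulated WT cells, against 10.89, 10.96 and 11.56 in resting Gli2A Tg cells, 10.39, 10.66 and 10.56 in resting Gli2R Tg cells and 10.93, 10.54 and 11.06 in resting WT cells. Resting Gli2A Tg replicate 3 came within 0.18 of the lowest stimulated array of its genotype. The log2 difference of Wdr12 was 0.63 in Gli2A Tg, 1.22 in Gli2R Tg and 0.90 in WT cells (SE 0.18, adjusted p = 0.00925, 4.35e-05 and 0.000703). A dimmer probe set of the same gene gave 1.86 in Gli2A Tg, 2.59 in Gli2R Tg and 1.98 in WT cells (SE 0.17). The smaller change of Wdr12 thus depends on the probe set. The dimmest Wdr12 probe set was called in no genotype (adjusted p = 0.157 in Gli2A Tg, 0.715 in Gli2R Tg and 0.703 in WT cells).

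The remaining 5 nucleolar proteins had median log2 differences of 1.08 in Gli2A Tg, 1.52 in Gli2R Tg and 1.53 in WT cells, and 4, 5 and 5 of them rose. Gnl3 (nucleostemin), a GTPase abundant in dividing cells, had 12.78, 12.79 and 12.87 in stimulated Gli2A Tg cells, 12.94, 12.86 and 12.91 in stimulated Gli2R Tg cells and 12.86, 12.85 and 12.97 in stimulated WT cells, against 10.68, 10.81 and 11.83 in resting Gli2A Tg cells, 10.19, 10.50 and 10.58 in resting Gli2R Tg cells and 11.03, 10.82 and 11.03 in resting WT cells. Resting Gli2A Tg replicate 3 was above its partners and below every stimulated array. The increase was 3.27-fold in Gli2A Tg, 5.58-fold in Gli2R Tg and 3.82-fold in WT cells (adjusted p = 1.56e-05, 3.61e-07 and 4.78e-06). The helicase Ddx21 differed by 1.51 in Gli2A Tg, 2.01 in Gli2R Tg and 1.53 in WT cells (SE 0.17), and Mybbp1a by 1.08 in Gli2A Tg, 1.52 in Gli2R Tg and 1.65 in WT cells (SE 0.19).

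Npm1 (nucleophosmin), the histone chaperone that forms the outer layer of the nucleolus, had a small increase with little spread in its brightest probe set. It had 15.34, 15.32 and 15.30 in stimulated Gli2A Tg cells, 15.33, 15.36 and 15.32 in stimulated Gli2R Tg cells and 15.34, 15.36 and 15.33 in stimulated WT cells, against 14.66, 14.59 and 14.74 in resting Gli2A Tg cells, 14.56, 14.59 and 14.63 in resting Gli2R Tg cells and 14.55, 14.65 and 14.64 in resting WT cells. Neither set of 9 arrays touched the other. The increase was 1.58-fold in Gli2A Tg, 1.68-fold in Gli2R Tg and 1.66-fold in WT cells (adjusted p = 4.24e-05, 1.35e-05 and 1.77e-05), close to the top of the scale, where the brightest gene had a level of 15.68. With median centring its log2 difference was 0.36 in Gli2A Tg cells (adjusted p = 0.0519) and 0.33 in Gli2R Tg cells (adjusted p = 0.0764), and with the deposited scaling alone 0.18 in Gli2A Tg cells (adjusted p = 0.299) and 0.28 in Gli2R Tg cells (adjusted p = 0.0989). A second Npm1 probe set gave smaller log2 differences of 0.25 in Gli2A Tg, 0.43 in Gli2R Tg and 0.32 in WT cells (adjusted p = 0.206, 0.0317 and 0.111).

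Ncl (nucleolin), which binds the nascent precursor RNA, was not called in Gli2A Tg cells. It had 14.59, 13.48 and 14.59 in stimulated Gli2A Tg cells, 14.84, 14.88 and 14.58 in stimulated Gli2R Tg cells and 14.86, 14.80 and 14.49 in stimulated WT cells, against 13.59, 13.53 and 14.18 in resting Gli2A Tg cells, 13.62, 13.66 and 13.20 in resting Gli2R Tg cells and 13.55, 13.36 and 13.38 in resting WT cells. In Gli2A Tg cells stimulated replicate 2 lay below all 3 resting arrays, and the other stimulated arrays lay above them. The log2 difference was 0.45 in Gli2A Tg, 1.27 in Gli2R Tg and 1.29 in WT cells (SE 0.26, adjusted p = 0.193, 0.00103 and 0.000972). Without stimulated Gli2A Tg replicate 2 it was 0.82 in Gli2A Tg cells (adjusted p = 0.00571), and without both arrays that stood apart 1.03 (adjusted p = 0.000659). Of 4 dimmer Ncl probe sets, 3 rose in every genotype and 1 was called in none. Their log2 differences in Gli2A Tg cells were 1.31, 1.62, 3.94 and 0.64 (adjusted p = 0.0178, 1.03e-05, 9.66e-07 and 0.243). The second of these, plotted with the other exceptions, rose by 1.62 in Gli2A Tg, 2.72 in Gli2R Tg and 2.21 in WT cells (adjusted p = 1.03e-05, 5.57e-08 and 4.94e-07).

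**Figure D3:**
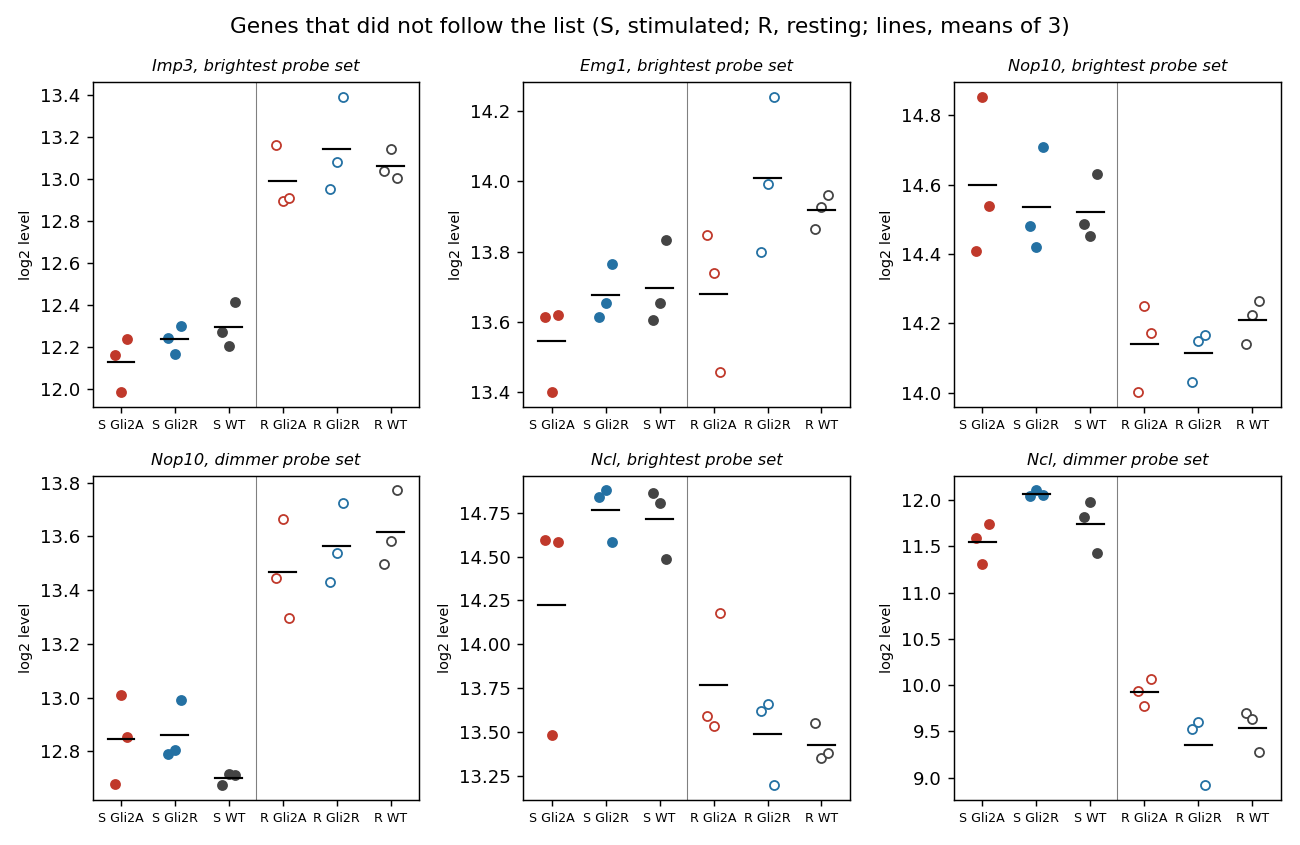
Log2 level on each array (points; lines are means of 3) of Imp3, Emg1, Nop10 and Ncl in stimulated (S, filled) and resting (R, open) cells of the 3 genotypes, with the brightest and a dimmer probe set for Nop10 and Ncl. Imp3 and the dimmer Nop10 probe set are lower in all stimulated arrays, and for the brightest Ncl probe set stimulated Gli2A Tg replicate 2 lies at 13.48, among the resting arrays.

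Other probe sets of the same genes gave a further view. Of the 46 genes, 15 had 1 probe set and 31 had several, with 45 dimmer probe sets in all. Of these 45, 36 rose in Gli2A Tg, 39 in Gli2R Tg and 36 in WT cells, and 1, that of Nop10, fell in each. Of all 34945 probe sets, 20.6% rose and 19.8% fell in Gli2A Tg, 19.9% rose and 19.8% fell in Gli2R Tg, and 20% rose and 19.4% fell in WT cells. Probe sets of 1 gene share its samples and are not replicates.

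The size of the stimulation effect ordered the genes much alike in the 3 genotypes. Rrp9, Rrp12, Ppan and Rrs1 were the 4 genes among the 10 largest effects in every genotype. Across the 46 genes, the effects had a Pearson correlation of 0.930 between Gli2A Tg and Gli2R Tg, 0.932 between Gli2A Tg and WT, and 0.959 between Gli2R Tg and WT cells, from separate arrays, and over all genes it was 0.881, 0.883 and 0.879. Probe sets with low resting signals had larger effects, and the correlation of resting level and effect across the 46 genes was -0.71 in Gli2A Tg, -0.69 in Gli2R Tg and -0.68 in WT cells, where both measures share the resting values. The effect of a gene ranged over the 3 genotypes by a median of 0.37, and most for Ncl, by 0.83.

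Myc, a transcription factor with many ribosome biogenesis genes among its known targets, rose in the same cells. It had 13.07, 12.55 and 13.20 in stimulated Gli2A Tg cells, 13.59, 13.39 and 13.37 in stimulated Gli2R Tg cells and 13.66, 13.47 and 13.38 in stimulated WT cells, against 10.18, 10.62 and 10.92 in resting Gli2A Tg cells, 10.81, 10.82 and 10.37 in resting Gli2R Tg cells and 11.09, 10.86 and 10.58 in resting WT cells. The lowest of the 9 stimulated arrays lay 1.46 units above the highest of the 9 resting arrays, and the increase was 5.16-fold in Gli2A Tg, 6.88-fold in Gli2R Tg and 6.31-fold in WT cells (adjusted p = 3.93e-07, 7.88e-08 and 1.33e-07). Myc and its partner Max bind the E-box, whose letters are CACGTG. These letters read the same on both strands.

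Promoter windows from RefSeq (GRCm38.p6, 250 bases before to 50 after a gene's start) were matched for 41 of the 46 genes. The letters CACGTG stood in 8 of the 41, or 19.5%, and in 10.3% of 14367 array genes and 8.09% of 27025 genes with a window. By window it was 18.2% of those of the 41 genes, against 7.15% of all. The 8 were Rrn3, Nop2, Imp4, Tsr1, Wdr43, Ltv1, Pes1 and Mybbp1a. The median of the mean stimulation effects was 1.77 for these 8 and 1.81 for the 33 without the letters. A match is only a match of letters, and binding was not measured.

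The 250 bases before the start are shown for 5 genes, with CACGTG in capitals and all on the plus strand. Nop2 (chr6:125131633-125131882), Rrn3 (chr16:13780449-13780698) and Imp4 (chr1:34439579-34439828) hold the letters before the start: 60 bases before it in Nop2, 215 and 48 in Rrn3 and 121 in Imp4. Ppan (chr9:20887925-20888174) had the largest mean effect and Imp3 (chr9:56937250-56937499) was the gene that fell, and neither window holds the letters.
Nop2: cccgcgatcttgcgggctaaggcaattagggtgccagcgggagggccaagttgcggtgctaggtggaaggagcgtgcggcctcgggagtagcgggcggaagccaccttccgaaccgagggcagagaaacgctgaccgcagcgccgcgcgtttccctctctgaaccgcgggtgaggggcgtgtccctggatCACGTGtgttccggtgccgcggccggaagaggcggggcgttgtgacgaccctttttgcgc
Rrn3: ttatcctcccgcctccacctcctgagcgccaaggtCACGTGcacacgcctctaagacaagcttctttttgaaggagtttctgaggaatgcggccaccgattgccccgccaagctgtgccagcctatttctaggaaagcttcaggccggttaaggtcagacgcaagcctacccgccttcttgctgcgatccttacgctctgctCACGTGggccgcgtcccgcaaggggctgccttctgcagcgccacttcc
Imp4: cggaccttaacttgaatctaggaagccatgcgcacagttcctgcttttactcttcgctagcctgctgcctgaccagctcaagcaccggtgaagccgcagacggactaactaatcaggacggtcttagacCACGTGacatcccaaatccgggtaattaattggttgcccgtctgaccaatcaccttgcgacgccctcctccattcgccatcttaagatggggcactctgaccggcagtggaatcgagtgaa
Ppan: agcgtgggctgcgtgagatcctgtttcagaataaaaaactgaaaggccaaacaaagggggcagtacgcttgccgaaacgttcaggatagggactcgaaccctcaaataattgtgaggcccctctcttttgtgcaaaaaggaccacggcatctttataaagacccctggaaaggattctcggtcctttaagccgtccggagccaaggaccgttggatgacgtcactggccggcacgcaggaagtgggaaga
Imp3: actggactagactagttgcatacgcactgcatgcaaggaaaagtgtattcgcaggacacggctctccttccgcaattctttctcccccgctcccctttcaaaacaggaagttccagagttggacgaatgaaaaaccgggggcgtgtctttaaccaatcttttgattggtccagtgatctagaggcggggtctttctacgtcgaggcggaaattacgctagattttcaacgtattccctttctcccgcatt
The 3 genes with the letters differed from each other in response, with Nop2 at 2.02 to 2.26, Imp4 at 1.15 to 1.28 and Rrn3 at 0.41 to 0.79 on the log2 scale over the genotypes.

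A further 106 ribosome biogenesis genes outside the set were listed by their known roles, with earlier results of these data known. These genes moved the same way. Of these 95 rose and 1 fell in Gli2A Tg, 93 rose and 2 fell in Gli2R Tg, and 91 rose and 1 fell in WT cells, with median log2 differences of 1.28, 1.31 and 1.37. Small-subunit factors rose in 37, 36 and 36 of 38, and large-subunit factors in 39, 39 and 38 of 41, with none falling. Among them Rpf2, which binds Rrs1, differed by 3.14 in Gli2A Tg, 3.46 in Gli2R Tg and 3.31 in WT cells (SE 0.20), and Spata5, an ATPase whose yeast counterpart recycles factors from the large subunit, by 4.39 in Gli2A Tg, 3.69 in Gli2R Tg and 3.66 in WT cells (SE 0.18). Nol10 differed by 2.51 in Gli2A Tg, 3.03 in Gli2R Tg and 2.74 in WT cells (SE 0.20) and Tbl3 by 2.66 in Gli2A Tg, 2.62 in Gli2R Tg and 2.79 in WT cells (SE 0.14), both of the small-subunit pathway.

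Not all of these 106 were called. Nol6 had 0.07 in Gli2A Tg, 0.04 in Gli2R Tg and 0.16 in WT cells (SE 0.22, adjusted p = 0.828, 0.921 and 0.606) and Nop53 had -0.29 in Gli2A Tg, -0.11 in Gli2R Tg and 0.06 in WT cells (SE 0.11, adjusted p = 0.0515, 0.463 and 0.733). Rrp36 had 0.67 in Gli2A Tg, 0.12 in Gli2R Tg and 0.10 in WT cells (adjusted p = 0.00123, 0.55 and 0.619) and Rsl24d1 -0.24 in Gli2A Tg, 0.34 in Gli2R Tg and 0.20 in WT cells (adjusted p = 0.435, 0.253 and 0.536). The other RNA polymerase I genes were more mixed, with 8 of 12 higher in each genotype. Polr1e, a subunit of the polymerase, differed by 2.29 in Gli2A Tg, 2.31 in Gli2R Tg and 2.04 in WT cells (SE 0.15) and Taf1d, of its promoter factor, by 1.24 in Gli2A Tg, 1.45 in Gli2R Tg and 1.36 in WT cells (SE 0.11). Taf1b, of the same factor, had -0.30 in Gli2A Tg, -0.83 in Gli2R Tg and -0.56 in WT cells (adjusted p = 0.323, 0.00735 and 0.0591), and Baz2a, of a complex that silences ribosomal DNA, had -0.14 in Gli2A Tg, -0.31 in Gli2R Tg and 0.05 in WT cells (adjusted p = 0.588, 0.182 and 0.869).

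The nuclear exosome, which trims precursor RNA from its ends, rose in 11, 10 and 9 of 15 genes in Gli2A Tg, Gli2R Tg and WT cells, and 1 fell in each. Dis3, an exosome nuclease, differed by 2.12 in Gli2A Tg, 2.60 in Gli2R Tg and 2.63 in WT cells (SE 0.28) and its helicase Mtrex by 1.54 in Gli2A Tg, 1.58 in Gli2R Tg and 1.58 in WT cells (SE 0.12). The core subunit Exosc6 fell, with log2 differences of -2.56 in Gli2A Tg, -3.81 in Gli2R Tg and -2.48 in WT cells (SE 0.41, adjusted p = 0.000101, 2.05e-06 and 0.000145). Exosc5, another core subunit, had -0.02 in Gli2A Tg, 0.05 in Gli2R Tg and 0.14 in WT cells (adjusted p = 0.933, 0.852 and 0.584).

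Most genes for the cytosolic ribosomal proteins themselves were not called with quantile normalization, but this count depended on the scaling. Of 27 measured genes for cytosolic ribosomal proteins, 1 rose and 7 fell in Gli2A Tg, 0 rose and 6 fell in Gli2R Tg, and 1 rose and 4 fell in WT cells, with median log2 differences of -0.02, -0.03 and 0.00. With median centring 19 fell in Gli2A Tg, 22 in Gli2R Tg and 3 in WT cells, with medians of -0.44, -0.61 and 0.04. With the deposited scaling alone 22 fell in Gli2A Tg, 23 in Gli2R Tg and 7 in WT cells, with medians of -0.62, -0.65 and -0.16. Rps27 differed by -2.66 in Gli2A Tg, -2.87 in Gli2R Tg and -2.33 in WT cells (SE 0.31, adjusted p = 4.68e-06, 2.18e-06 and 1.84e-05) and Rpl37 by 0.01 in Gli2A Tg, -0.97 in Gli2R Tg and -1.20 in WT cells (SE 0.25, adjusted p = 0.983, 0.0054 and 0.00112). At the other end Rpl14 had 0.93 in Gli2A Tg, 0.53 in Gli2R Tg and 0.54 in WT cells (SE 0.27, adjusted p = 0.0106, 0.129 and 0.126) and Rps4x 0.22 in Gli2A Tg, 0.17 in Gli2R Tg and 0.27 in WT cells (SE 0.10, adjusted p = 0.0875, 0.189 and 0.0361). Their median level was 15.19, and the highest level of any gene was 15.68. The part of this brightness in their differences was not tested.

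Mitochondrial ribosomal proteins went both ways. Of 51 measured genes, 24 rose and 8 fell in Gli2A Tg, 21 rose and 12 fell in Gli2R Tg, and 16 rose and 13 fell in WT cells, with median log2 differences of 0.25, 0.29 and 0.13. Mrps18b differed by 1.95 in Gli2A Tg, 2.20 in Gli2R Tg and 2.03 in WT cells (SE 0.15) and Mrpl3 by 1.98 in Gli2A Tg, 2.13 in Gli2R Tg and 2.01 in WT cells (SE 0.15). Mrpl34 differed by -1.79 in Gli2A Tg, -1.67 in Gli2R Tg and -1.84 in WT cells (SE 0.19) and Mrps16 by -1.03 in Gli2A Tg, -1.50 in Gli2R Tg and -1.22 in WT cells (SE 0.16).

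**Figure D4:**
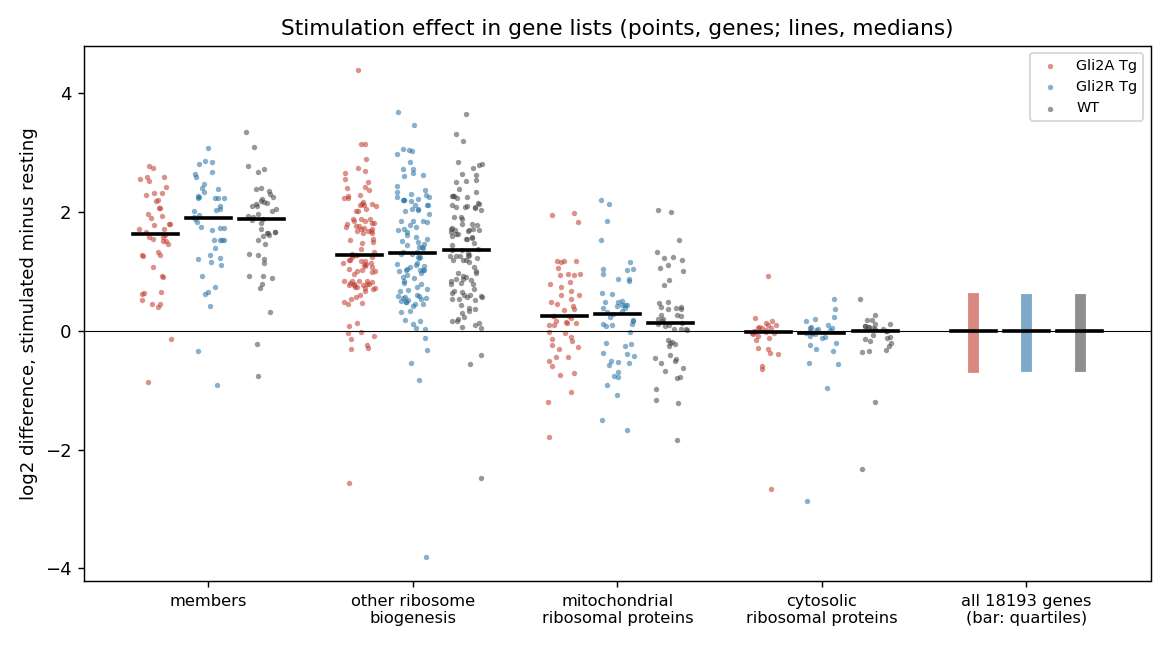
Log2 difference, stimulated minus resting, of each gene (points) in Gli2A Tg (red), Gli2R Tg (blue) and WT cells (grey) for the 46 genes described here, 106 other ribosome biogenesis genes, 51 mitochondrial and 27 cytosolic ribosomal protein genes, with lines at the medians and, on the right, bars over the quartiles of all 18193 genes. The medians are 1.64 to 1.91 for the 46 genes and 1.28 to 1.37 for the 106, against -0.03 to 0.00 for cytosolic ribosomal proteins, whose medians reach -0.65 with the deposited scaling.

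The transgenes were compared next, to ask whether Gli2A or Gli2R changes these genes in resting or stimulated cells. None of the 46 genes was called in any of the 6 genotype comparisons by limma. In stimulated cells 7 genes had an unadjusted p under 0.05 for Gli2A Tg against WT, 2 for Gli2R Tg against WT and 1 for Gli2A Tg against Gli2R Tg, and in resting cells 2, 1 and 7 did. Of all genes, 0.137%, 0.044% and 0.231% were called in stimulated and 0.55%, 0% and 2.4% in resting cells in the same order of comparisons. At an unadjusted p under 0.05 it was 11.4%, 9.21% and 9.16% of all genes in stimulated and 10.1%, 10.3% and 17% in resting cells. The comparisons of Gli2A Tg and of Gli2R Tg with WT share the WT arrays. The median half-width of a 95% interval for a genotype difference of the 46 genes was 0.33 on the log2 scale, and larger differences than this were also not called, such as 0.60 for Wdr12.

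In stimulated cells the median of the 46 log2 differences was -0.16 for Gli2A Tg minus WT, with 11 of the 46 above 0, and -0.03 for Gli2R Tg minus WT, with 19 above 0. For Gli2A Tg minus Gli2R Tg it was -0.10, with 13 above 0. With median centring these medians were -0.22 for Gli2A Tg minus WT, -0.20 for Gli2R Tg minus WT and 0.03 for Gli2A Tg minus Gli2R Tg. The 3 Gli2A Tg arrays lay below the 3 WT arrays for 13 of the 46 genes (28.3%), where 8.65% of all genes did so, and above them for 2, where 9.38% did. The Gli2R Tg arrays lay below WT for 9 and above WT for 4, where 9.32% and 8.27% of all genes did, and the Gli2A Tg arrays lay below Gli2R Tg for 9 and above for 0, where 7.43% and 9.2% did. Without stimulated Gli2A Tg replicate 2 the median against WT was -0.09 and that against Gli2R Tg -0.04, and 15 of the 46 lay below WT without overlap, where 13.8% of all genes did. The Actb 3′ to 5′ ratio was 1.77 to 2.996 in stimulated Gli2A Tg cells, against 1.47 to 1.55 in stimulated Gli2R Tg and 1.51 to 1.61 in stimulated WT cells, without overlap, and its part in these differences was not tested.

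In resting cells the medians were -0.02 for Gli2A Tg minus WT, -0.04 for Gli2R Tg minus WT and 0.06 for Gli2A Tg minus Gli2R Tg, with 22, 18 and 30 of the 46 above 0. Without resting Gli2A Tg replicate 3, the first and the last of these were -0.08 and -0.05.

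**Figure D5:**
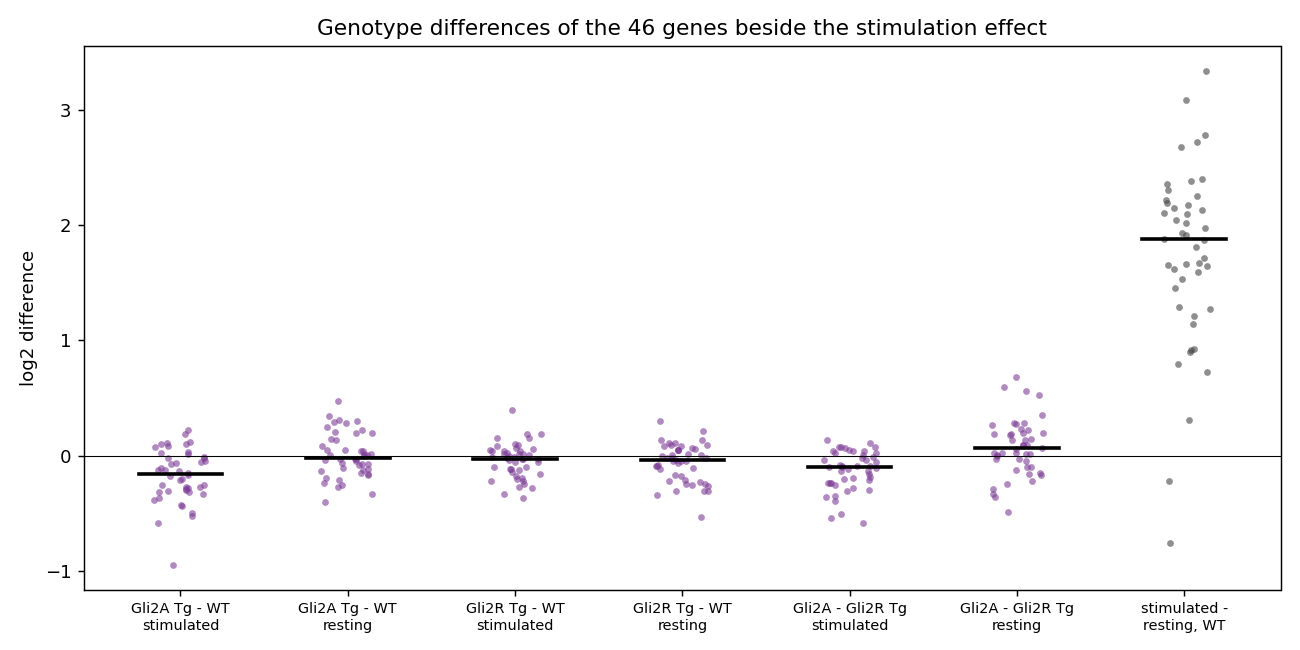
Log2 differences of the 46 genes (points; lines are medians) for Gli2A Tg minus WT, Gli2R Tg minus WT and Gli2A Tg minus Gli2R Tg in stimulated and in resting cells, beside stimulated minus resting in WT cells on the same axis. The genotype differences lie between -0.95 and 0.68 around medians of -0.16 to 0.06, while the WT stimulation differences have a median of 1.88.

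The genes with the lowest p in each genotype comparison are given as values only. For Gli2A Tg against WT in stimulated cells they were Pes1 and Fbl. Pes1 had 12.57, 12.04 and 12.61 in stimulated Gli2A Tg cells and 13.01, 13.05 and 12.72 in stimulated WT cells, and the log2 difference was -0.52 (95% interval -0.88 to -0.16, adjusted p = 0.234). Its 3 Gli2A Tg arrays lay below the 3 WT arrays. Without stimulated replicate 2 the Pes1 difference was -0.34 (adjusted p = 0.587), and with the mean of its probe sets -0.04 (adjusted p = 0.958). For Fbl, with values given above, it was -0.43 (95% interval -0.74 to -0.13, adjusted p = 0.244).

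For Gli2R Tg against WT in stimulated cells they were Ddx21 and Fbl. Ddx21 had 12.58, 12.56 and 12.47 in stimulated Gli2R Tg cells and 12.36, 12.13 and 11.94 in stimulated WT cells, a log2 difference of 0.40 (95% interval 0.04 to 0.75, adjusted p = 0.475). The groups did not overlap. Fbl differed by -0.33 (adjusted p = 0.493).

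For Gli2A Tg against Gli2R Tg in stimulated cells they were Nop16 and Nop14. Nop16 had 12.10, 11.70 and 12.03 in stimulated Gli2A Tg cells and 12.29, 12.40 and 12.19 in stimulated Gli2R Tg cells, a log2 difference of -0.35 (95% interval -0.68 to -0.03, adjusted p = 0.491). Without stimulated Gli2A Tg replicate 2 the Nop16 difference was -0.23 (adjusted p = 0.889). Nop14 had 9.65, 9.88 and 9.91 in stimulated Gli2A Tg cells and 10.29, 10.16 and 10.51 in stimulated Gli2R Tg cells, a difference of -0.51 (adjusted p = 0.546). Neither gene's groups overlapped.

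In resting cells Dimt1 and Imp4 had the lowest p for Gli2A Tg against WT. Dimt1 had 8.45, 7.99 and 7.88 in resting Gli2A Tg cells and 8.40, 8.50 and 8.63 in resting WT cells, a log2 difference of -0.41 (95% interval -0.73 to -0.08, adjusted p = 0.353), and the groups overlapped. Imp4 had 11.02, 10.98 and 10.77 in resting Gli2A Tg cells, 11.15, 11.34 and 11.35 in resting Gli2R Tg cells and 11.21, 11.22 and 11.16 in resting WT cells. Its Gli2A Tg arrays were below those of both other genotypes, with log2 differences of -0.27 against WT (adjusted p = 0.404) and -0.36 against Gli2R Tg (adjusted p = 0.106).

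Wdr12 had the lowest p for Gli2A Tg against Gli2R Tg in resting cells, with a log2 difference of 0.60 (95% interval 0.22 to 0.98, adjusted p = 0.0912). The values above did not overlap, and Gli2A Tg replicate 3 was the highest. Without it the Wdr12 difference was 0.38 (adjusted p = 0.337). Alas2, of the erythroid markers, was called higher in the same comparison (18.1-fold, adjusted p = 0.00194), and the myeloid and erythroid sums given above did not overlap between these groups; their part in the Wdr12 difference was not tested. For Gli2R Tg against WT in resting cells Gnl3 differed by -0.54 (95% interval -1.02 to -0.06, adjusted p = 0.423) and Bop1 by -0.25 (adjusted p = 0.518). Bop1 had 9.89, 9.90 and 9.97 in resting Gli2R Tg cells and 10.22, 10.07 and 10.22 in resting WT cells, without overlap.

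Whether stimulation acted differently by genotype was tested by the difference between stimulation effects. None of the 46 genes was called by limma for Gli2A Tg against WT, Gli2R Tg against WT or Gli2A Tg against Gli2R Tg, where 0.011%, 0% and 0.11% of all genes were, and 5, 0 and 5 of the 46 had an unadjusted p under 0.05, as did 10.1%, 8.65% and 10.6% of all genes. The medians of the 46 differences were -0.24, -0.01 and -0.20, and 12, 21 and 12 genes were above 0. Without both Gli2A Tg arrays that stood apart, the medians that involve Gli2A Tg were -0.02 and -0.03. With median centring the medians were -0.27, -0.23 and -0.06 in the same order. The median half-width of the 95% intervals was 0.47.

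The lowest p for these differences belonged to a few genes. For Dimt1 the difference was 0.51 for Gli2A Tg minus WT (95% interval 0.04 to 0.97, adjusted p = 0.452) and 0.63 for Gli2A Tg minus Gli2R Tg (adjusted p = 0.309). Dimt1 had 10.81, 10.69 and 10.48 in stimulated Gli2A Tg cells, 10.62, 10.47 and 10.48 in stimulated Gli2R Tg cells and 10.44, 10.56 and 10.67 in stimulated WT cells and these groups overlapped. Rrp9 had -0.59 for Gli2A Tg minus WT (adjusted p = 0.469), and Gnl3 had, for Gli2A Tg minus Gli2R Tg, -0.77 (adjusted p = 0.404). Without resting Gli2A Tg replicate 3 the Gnl3 value was -0.41 (adjusted p = 0.544). For Gli2R Tg against WT the values were 0.48 for Ddx21 (adjusted p = 0.598) and 0.41 for Heatr1 (adjusted p = 0.615). With the mean of all probe sets of a gene the Ddx21 value was 0.01 (adjusted p = 0.991), the Heatr1 value -0.24 (adjusted p = 0.835) and the Dimt1 value for Gli2A Tg minus Gli2R Tg 0.04 (adjusted p = 0.974). Heatr1 had 13.08, 12.98 and 13.05 in stimulated Gli2R Tg cells and 12.92, 12.82 and 12.91 in stimulated WT cells, against 10.77, 10.98 and 11.26 in resting Gli2R Tg cells and 11.34, 11.09 and 11.36 in resting WT cells.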

How the data were processed

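The deposited table held linear intensity values of 45101 probe sets on 18 Affymetrix arrays. Per the submitters' processing notes the intensities came from the affy package, and per the labels cRNA was made from 1 ug of total RNA; the summary method and genome build are not given in the sources used here. Each array had a 2% trimmed mean of 500 in the deposited values, and array medians were 55.5 to 76.3. The 3 arrays per group limit the precision.

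Log2 of the deposited intensity plus 16 was quantile normalized. Of the probe sets, 34945 named 1 gene, 932 several, 9160 none and 64 were controls. The probe set with the highest mean among those naming 1 gene was kept, which gave 18193 genes. Symbols came from the platform annotation, with 34741 Entrez numbers matched and 0 renamed. Columns of other samples numbered 0.

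All 18 arrays entered 1 limma fit of 6 group means (limma 3.58.1, R 4.3.3, with lmFit and eBayes), which gave 12 comparisons, with Benjamini-Hochberg adjustment over all genes; dimmer probe sets were tested in a second such fit over the 34945 probe sets that name 1 gene. The fit was also run on simulated data with independent noise. Such data lack the shifts in cell markers and RNA quality seen here, so that run does not bear on the calls. A difference in the text is a difference of log2 means with its SE, and the text calls a gene higher or lower at an adjusted p under 0.05. The members and the further gene lists were chosen with earlier results of these data known. Values on every array are given for the largest and smallest mean stimulation effect of each role group, for genes not called in a stimulation comparison, and for the 2 lowest p of each genotype comparison; from each further list the 2 largest and 2 smallest effects are named. Replicate numbers were not treated as pairs in the main fit. Arrays with the same number had correlations of deviations of -0.06 to 0.10 (27 pairs). These values show no strong shared shift and cannot tell whether the samples were paired. Alternatives were median centring, the deposited scaling, other pseudocounts, a level filter, another variance model, averaging all probe sets of a gene, fits of the compared groups alone, a replicate block, each array left out in turn, and, chosen after seeing the data, both Gli2A Tg arrays that stood apart left out.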

Additional observations from a re-analysis of the deposited data

How the results depend on the processing

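Over 28 alternative settings the number of the 46 genes that rose was 38 to 43 in Gli2A Tg, 42 to 44 in Gli2R Tg and 43 to 44 in WT cells, and 42 to 43, 43 to 44 and 43 to 43 with 1 array left out. In all 28 settings 37, 43 and 43 genes kept their call and direction. With replicate number as a block the counts were 43, 44 and 43, and this pairing changed no count of the 46. In Gli2A Tg cells the calls of Rrn3, Fbl, Dkc1, Nop10 and Wdr12 were lost when the compared groups were fitted alone, and those of Rrn3, Nop10, Nop14 and Npm1 with the deposited scaling. The calls of Npm1 in Gli2A Tg and Gli2R Tg cells were also lost with median centring. The mean of all probe sets gave Nop10 values of -0.0819 in Gli2A Tg, -0.14 in Gli2R Tg and -0.30 in WT cells, with the sign turned by the dimmer probe set. Emg1 was 0.19 in Gli2A Tg and 0.16 in WT cells with median centring, and 0.0162 in Gli2A Tg cells with the deposited scaling. The stimulation difference of Heatr1, Gli2R Tg minus WT, was -0.24 with the mean of all probe sets, which also moved by over 1.5 times genotype values of Dimt1, Imp4, Pes1, Bop1, Ddx21 and Wdr12. With median centring it was 0.22, and Fbl in stimulated Gli2R Tg minus WT cells was -0.58 (adjusted p = 0.196). The causes of these changes were not tested.

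Genotype counts and those of differences between stimulation effects stayed at 0 in every setting, except for resting Gli2A Tg against Gli2R Tg. There it was 2 with log2 of the value plus 64 (Imp4, Wdr12), 4 among genes above the median level (Imp4, Dimt1, Wdr12, Gnl3), 4 with another variance model (Nhp2, Imp4, Wdr12, Gnl3), and 0 to 2 with 1 array left out: 2 without resting Gli2A Tg replicate 1 (Dimt1, Gnl3), 1 without its replicate 2 (Wdr75) and 1 without resting Gli2R Tg replicate 3 (Nhp2). With the deposited scaling 17% of all genes rose and 26.2% fell in WT cells, and with median centring 22.2% and 21.2%, against 19.7% and 22%. Risers among cytosolic ribosomal proteins numbered 0 to 4 in Gli2A Tg, 0 to 2 in Gli2R Tg and 0 to 3 in WT cells, against 1, 0 and 1, and those among mitochondrial ones in WT cells reached 26 with median centring, against 16.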
